A study of Mus musculus with 13 samples.

Results

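The red cell membrane genes described here are the 10 genes Aqp1, Slc4a1, Ank1, Sptb, Epb42, Rhag, Rhd, Kel, Add2 and Ermap, each read by 1 probe set of an Affymetrix Mouse Gene 1.0 ST array that the platform annotation gives to that gene alone. They are 10 of the 19938 genes named on the array. The 13 arrays hold bone marrow RNA from femurs of male C57BL/6 mice aged 6 weeks, 1 array per sample. The 3 control samples were taken at baseline. The others followed withdrawal of 500 µL of blood behind the eye (retro-orbital puncture), with 1 sample at 4 h, 3 at 9 h, and 2 each at 12, 15 and 48 h. The labels mention no sham puncture, genetic change or hour of day, nor do they tie each replicate to its own animal. The p-values therefore reflect how far these samples scatter, and that scatter may be technical.

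A red cell carries a bilayer pinned to a mesh of spectrin. Ankyrin and the product of Epb42 tie spectrin to band 3, the anion exchanger, and at other joints adducin and actin hold spectrin ends together. Rh proteins, the water channel and blood group antigens sit among them. Erythroblasts in the marrow make these transcripts as they mature towards reticulocytes, and blood loss drives more progenitors along that path through erythropoietin. In whole marrow, fewer cells of a type and less RNA per cell cannot be told apart.

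Levels are log2 values. The numbers in the sample titles form 2 runs. The larger holds 10 arrays and the smaller 3, namely control replicate 3 with replicates 1 and 2 of the 9 h group. The median gene read 7.30 to 7.40 on the arrays of the larger run and 8.13 to 8.14 on those of the smaller. No level is therefore set across runs. In the smaller run 75.6% of genes had the same value on 2 or more of the 3 arrays, as had 2 of the 10 membrane genes, Ank1 and Sptb. As a check of the tissue, 15 markers of neutrophils, abundant cells of marrow, averaged 12.57 to 12.81 in the larger run.

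At 48 h all 10 genes were higher than at 12 and 15 h. Both arrays at 48 h were above all 4 arrays at 12 and 15 h, as for 15.4% of all genes. The same held for 24 of 28 measured erythroid regulators and heme enzymes. Only Aqp1 passed the test over all genes, where 0.828% of them did in either direction. At 9, 12 and 15 h Aqp1 was the only member below the controls on every array of both runs, as were 1.54% of all genes. Against control no member passed at any time, where the members' medians ran from −0.36 to 0.28, and the 2 controls of the larger run differed from each other by a median of 0.54.

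**Figure D1:**
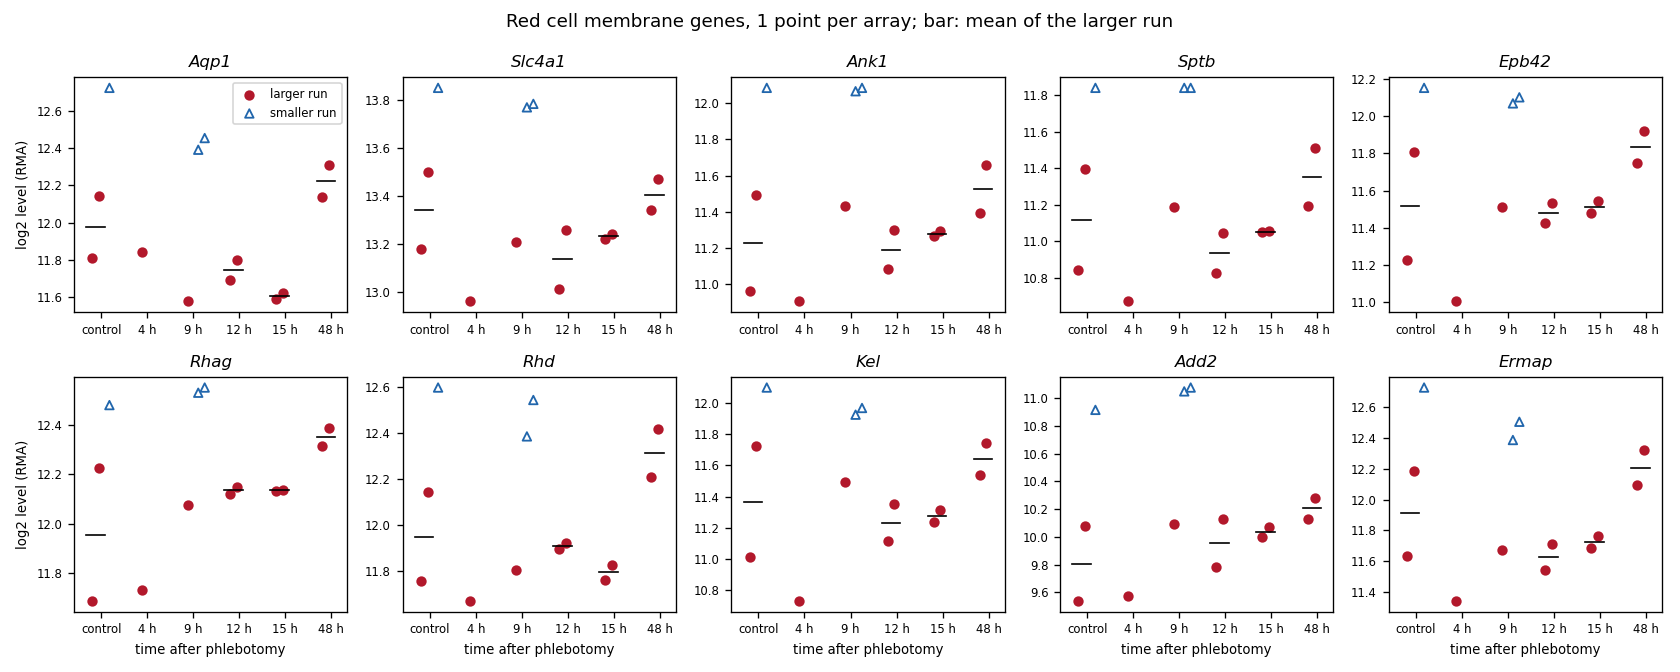
Log2 level of each gene (vertical axis) on each array by group (horizontal axis); filled circles are the larger run, open triangles the smaller run, and bars are the mean of the larger run where a group has 2 arrays. The 48 h circles lie above the 12 and 15 h circles in all 10 panels, and the 2 control circles lie apart in each.

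The 2 controls of the larger run entered every comparison with control and differed from each other. Control replicate 2 was higher than control replicate 1 for all 10 genes, by 0.32 (Slc4a1) to 0.71 (Kel), with a median of 0.54. Over all genes the median size of the difference was 0.13, and only 5.51% of genes were higher in control replicate 2 by as much as Slc4a1, the member that differed least. The pairs at other times were closer. At 15 h the members' differences ran from −0.08 to 0.07, and at 12 h replicate 2 was higher by 0.03 to 0.34. At 48 h replicate 1 was the higher for all 10, by 0.08 (Rhag) to 0.32 (Sptb). The 28 measured erythroid regulators and heme enzymes, none of them a member, averaged 10.999 in control replicate 1 and 11.36 in control replicate 2, so other erythroid genes differed between the controls in the same direction.

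**Figure D2:**
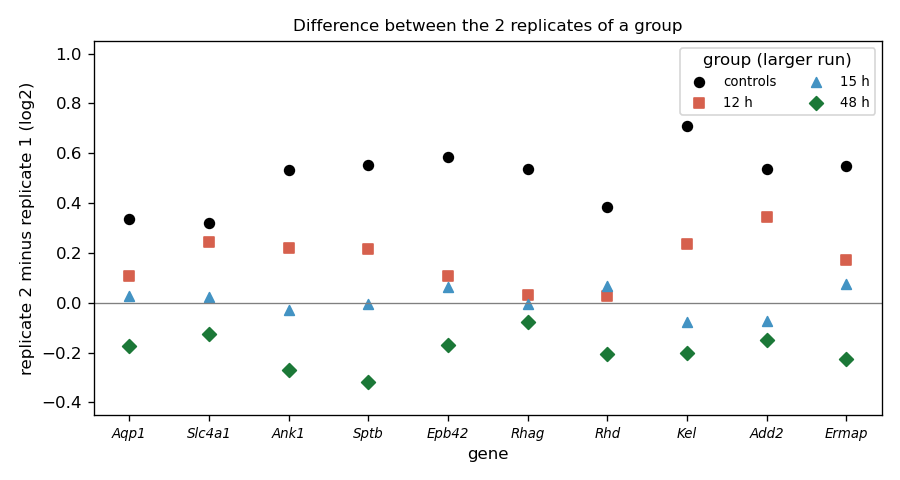
Log2 level in replicate 2 minus replicate 1 (vertical axis) for each gene (horizontal axis) in the 4 groups with 2 arrays in the larger run. The control differences lie between 0.32 and 0.71, above those of every other group for each gene.

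The levels of the 10 genes varied together across arrays. Over the 10 arrays of the larger run the Pearson correlation between 2 members ranged from 0.34 to 0.98 with a median of 0.87 (45 pairs), a description over arrays of 1 run that include both controls and all times. Epb42 followed the mean of the other 9 most closely (r = 0.98) and Aqp1 least (r = 0.63). The non-members most like the members' mean were Ccrl2 (r = 0.99), Txnrd2 (0.99), Spire1 (0.99), Lpin2 (0.98), Sox6, a transcription factor of erythroid maturation (0.98), and Slc43a1, an amino acid transporter (0.98).

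Because the levels varied together, the 250 bases before the annotated start of transcription are shown for Epb42, the closest follower, for Aqp1, which followed the others least, and for Rhag and Ermap, which differ in direction at 12 h against control (0.17 and −0.29, neither past the threshold). Sequences are from RefSeq on GRCm38.p6, 5′ to 3′ on the strand of the gene, and 8 of the 10 members matched the table. Capitals mark words bound by GATA factors (AGATAA or AGATAG, and likewise TGATAA or TGATAG) or by KLF factors (CCNCNCCC), searched on both strands; no GATA match overlapped a KLF match. The windows are chr2:121036878-121037127 (minus strand) for Epb42, chr17:40810899-40811148 (plus strand) for Rhag, chr6:55336049-55336298 (plus strand) for Aqp1 and chr4:119189996-119190245 (minus strand) for Ermap.
Epb42: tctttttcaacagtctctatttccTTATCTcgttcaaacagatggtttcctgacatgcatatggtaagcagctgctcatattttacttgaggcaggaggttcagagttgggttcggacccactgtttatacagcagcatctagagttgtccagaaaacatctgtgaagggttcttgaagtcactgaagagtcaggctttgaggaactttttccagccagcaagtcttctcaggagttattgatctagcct
Rhag: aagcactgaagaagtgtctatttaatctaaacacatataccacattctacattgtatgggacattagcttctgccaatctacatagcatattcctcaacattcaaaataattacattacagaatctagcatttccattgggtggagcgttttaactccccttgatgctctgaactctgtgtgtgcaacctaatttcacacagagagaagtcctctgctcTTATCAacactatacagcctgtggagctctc
Aqp1: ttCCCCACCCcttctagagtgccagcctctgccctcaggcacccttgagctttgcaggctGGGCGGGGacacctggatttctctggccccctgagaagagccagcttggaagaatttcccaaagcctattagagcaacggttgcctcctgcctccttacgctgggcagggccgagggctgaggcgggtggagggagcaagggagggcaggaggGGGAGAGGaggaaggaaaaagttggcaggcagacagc
Ermap: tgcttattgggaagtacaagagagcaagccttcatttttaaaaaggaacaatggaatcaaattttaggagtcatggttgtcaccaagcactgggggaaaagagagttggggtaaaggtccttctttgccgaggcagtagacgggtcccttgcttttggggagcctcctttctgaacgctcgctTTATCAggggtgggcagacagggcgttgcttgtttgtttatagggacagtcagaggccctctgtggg

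A GATA word was present in 6 of the 8 member windows (75.0%), against 26.5% of all 32851 promoter windows of that length, and a KLF word in 3 of the 8 (37.5%), against 45.9%. Aqp1 and Sptb held 3 KLF matches each and no GATA match in this window, while Epb42, Rhag, Rhd, Kel and Ermap held GATA matches and no KLF match. Add2 held both. A match is a description of the letters and was not tied to binding here.

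The water channel Aqp1, which lets red cells swell and shrink quickly, had the clearest time course. Its level was 11.81 and 12.14 in the 2 controls of the larger run, 11.84 at 4 h, 11.58 at 9 h, 11.69 and 11.80 at 12 h, 11.59 and 11.62 at 15 h, and 12.31 and 12.14 at 48 h. All 5 arrays from 9 to 15 h lay below both controls, and both 48 h arrays lay above the 12 and 15 h arrays, but the lower 48 h array overlapped the higher control. In the smaller run Aqp1 was 12.73 in the control and 12.39 and 12.46 at 9 h, so the 9 h arrays were below the control there as well. Such separation downward in both runs was seen for 1.54% of all genes.

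In the fit of all 13 arrays with a term for the run (limma, Benjamini-Hochberg adjustment across 19938 genes, threshold 0.05), Aqp1 at 48 h exceeded the mean of 12 and 15 h by log2 0.55 ± 0.10 (SE), a 1.46-fold rise (95% interval 0.34 to 0.76, adjusted p = 0.0292). The group means were 12.22 ± 0.12 (SD, n = 2) at 48 h and 11.68 ± 0.09 (SD, n = 4) at 12 and 15 h. Against control the Aqp1 differences were −0.35 ± 0.10 at 9 h (adjusted p = 0.451), −0.21 ± 0.11 at 12 h (adjusted p = 0.408), −0.35 ± 0.11 at 15 h (adjusted p = 0.236) and 0.26 ± 0.11 at 48 h (adjusted p = 0.297), none past the threshold. The call at 48 h against 12 and 15 h did not hold in the larger run alone (adjusted p = 0.0978, where 0.276% of all genes passed) or without 48 h replicate 1 (0.46 ± 0.12, adjusted p = 0.304), and with single arrays omitted it was lost 7 times out of 13 (adjusted p 0.00914 to 0.304). The 9 h arrays lie outside this comparison but enter the estimated spread. Without 9 h replicate 1 or 2 the difference stayed at 0.55, with adjusted p = 0.0634 and 0.0564 in turn. Both belong to the smaller run, whose tied values may make that spread too small. Aqp1 is also made by endothelium. The 11 measured stromal and endothelial markers, 0 of which passed, averaged 10.02 and 10.38 at 48 h and 10.49 to 10.71 at 12 and 15 h. Their differences in the fit ran from −0.94 to 0.11, and an average of this mixed list does not read endothelium alone. At 9 h in the larger run these markers averaged 9.96, below the controls (10.70 and 10.40), and in the smaller run 11.17 and 11.25 against 11.32. Their part in the Aqp1 values at 9 h and 48 h was not tested.

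Band 3, encoded by Slc4a1, exchanges chloride for bicarbonate and is the main anchor of the membrane to its skeleton. Its level was 13.18 and 13.50 in the controls, 12.96 at 4 h, 13.21 at 9 h, 13.01 and 13.26 at 12 h, 13.22 and 13.24 at 15 h, and 13.47 and 13.34 at 48 h. From 9 h on its arrays in the larger run lay within the range of the controls, except for 12 h replicate 1, which was below it (13.01 against 13.18). The difference at 48 h was 0.07 ± 0.11 against control (95% interval −0.17 to 0.32, adjusted p = 0.806) and 0.22 ± 0.10 against 12 and 15 h (adjusted p = 0.260), and neither passed.

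Rhag and Rhd form the Rh complex, in which Rhag conducts ammonia and Rhd is the mouse counterpart of the human Rh antigen carriers. Rhag was 11.69 and 12.22 in the controls, 11.73 at 4 h, 12.07 at 9 h, 12.12 and 12.15 at 12 h, 12.14 and 12.13 at 15 h, and 12.39 and 12.31 at 48 h. The 5 arrays from 9 to 15 h spanned less than 0.1 and sat between the 2 controls, and both 48 h arrays exceeded both controls. Rhd was 11.76 and 12.14 in the controls, 11.67 at 4 h, 11.81 at 9 h, 11.90 and 11.92 at 12 h, 11.76 and 11.83 at 15 h, and 12.42 and 12.21 at 48 h. It too exceeded both controls at 48 h. In the smaller run Rhag was 12.48 in the control and 12.53 and 12.55 at 9 h, whereas Rhd was 12.60 in the control and 12.38 and 12.54 at 9 h.

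Among the tests of the Rh pair none passed. At 48 h against control Rhag differed by 0.38 ± 0.13 (adjusted p = 0.224) and Rhd by 0.36 ± 0.12 (adjusted p = 0.199). Against 12 and 15 h the Rhd difference of 0.46 ± 0.11 had an adjusted p = 0.0717, and that of Rhag was 0.22 ± 0.12 (adjusted p = 0.354). Rhd passed with the 3 groups of this comparison alone (adjusted p = 0.0393), with trend and robust moderation (0.0484), without control replicate 1 (0.0173) and without control replicate 2 (0.0333). It did not pass in the larger run alone (adjusted p = 0.146), and without 48 h replicate 1 the difference was 0.36. Leaving out a control keeps a difference between 48 h and 12 and 15 h as it was and changes only the estimated spread. The same holds for Epb42, Ermap and Kel below. Rhag passed at 48 h against control without control replicate 2 (0.57, adjusted p = 0.0498).

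The skeleton genes, Sptb (beta spectrin), Ank1 (ankyrin), Epb42 (a partner of band 3) and Add2 (beta adducin, which caps actin at the spectrin junctions), differed between the controls by 0.53 to 0.58. Sptb was 10.84 and 11.39 in the controls and 10.67 at 4 h, 11.19 at 9 h, 10.83 to 11.06 at 12 and 15 h, and 11.51 and 11.19 at 48 h. Ank1 ran from 10.96 to 11.50 in the controls and from 11.08 to 11.30 at 12 and 15 h, and Epb42 from 11.22 to 11.81 and from 11.42 to 11.54. All 12 and 15 h arrays of Ank1 and Epb42 fell between the 2 controls.

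At 48 h the skeleton genes exceeded the mean of 12 and 15 h by 0.36 ± 0.14 for Sptb (adjusted p = 0.207), 0.34 ± 0.13 for Epb42 (adjusted p = 0.200), 0.29 ± 0.14 for Ank1 (adjusted p = 0.282) and 0.21 ± 0.14 for Add2 (adjusted p = 0.439), none past the threshold. Without control replicate 1 Epb42 passed (adjusted p = 0.0353). For Add2 the lower 48 h array (10.13) and the higher 12 h array (10.13) were almost equal. At 9 h in the larger run Add2 was above both controls by little and on 1 array (10.09 against 9.54 and 10.07). The share of all genes so placed is not given here. That array was above both controls for 25% of the 28 erythroid regulators and heme enzymes and for 31.2% of 32 other red cell membrane genes. In the smaller run Add2 was 11.08 and 11.05 at 9 h against 10.91. Its difference at 9 h was 0.22 ± 0.14 (adjusted p = 0.822).

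Kel, the Kell endopeptidase, and Ermap, an immunoglobulin-like protein that carries the Scianna antigens in humans, are the surface antigens of the set. Ermap was 11.64 and 12.19 in the controls, 11.34 at 4 h, 11.67 at 9 h, 11.54 and 11.71 at 12 h, 11.69 and 11.76 at 15 h, and 12.32 and 12.09 at 48 h. Its arrays from 9 to 15 h sat near the lower control and its 48 h arrays near the higher one. At 48 h Ermap exceeded the mean of 12 and 15 h by 0.53 ± 0.13, 1.44-fold (95% interval 0.24 to 0.82, adjusted p = 0.0864), which passed only with the 3 groups of the comparison alone (adjusted p = 0.0350) or without control replicate 1 (adjusted p = 0.0152) or control replicate 2 (adjusted p = 0.0364). Kel was 11.01 and 11.72 in the controls, 10.73 at 4 h, 11.50 at 9 h, 11.12 to 11.35 at 12 and 15 h, and 11.74 and 11.54 at 48 h, with a difference of 0.39 ± 0.16 against 12 and 15 h (adjusted p = 0.237), which passed without control replicate 1 (adjusted p = 0.0311).

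**Figure D3:**
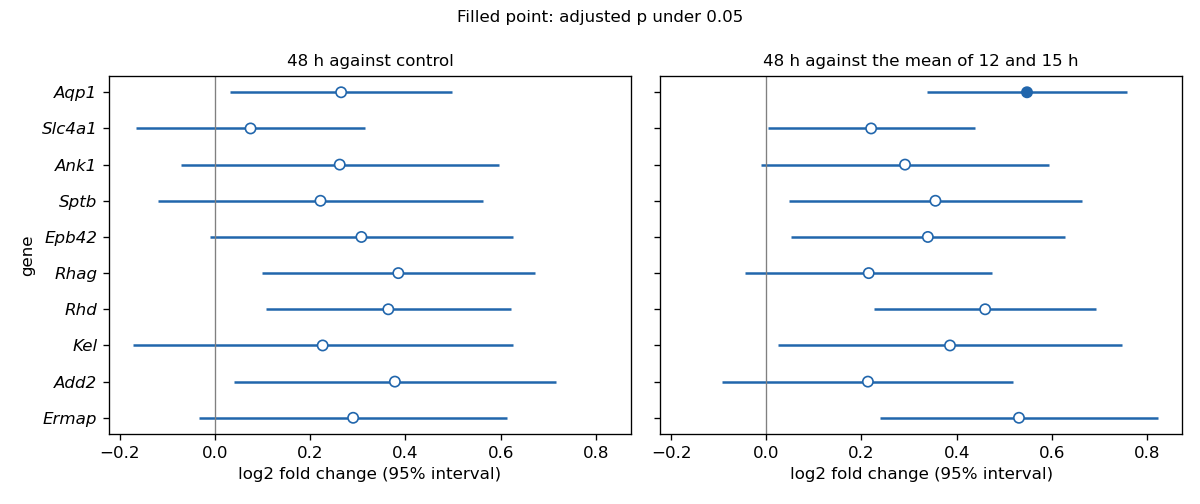
Log2 fold change (horizontal axis) with its 95% interval for each gene at 48 h against control (left) and against the mean of 12 and 15 h (right), from the fit of 13 arrays with a run term; a filled point has an adjusted p under 0.05. All 20 estimates are above 0, and only Aqp1 on the right is filled.

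Of the group at 48 h, 1 of the 10 members passed upward against 12 and 15 h, where 0.707% of all genes did, and 0 passed downward, where 0.120% did (0.828% in either direction). The members' median was 0.35, against 0.02 for all genes. All 10 members had both 48 h arrays above the 4 arrays at 12 and 15 h, as had 15.4% of all genes. Against control the members' median at 48 h was 0.28, 0 passed (0.376% of all genes did so in either direction), and 3 of 10, Rhag, Rhd and Add2, had both 48 h arrays above both controls, as had 24.2% of all genes. The 2 comparisons share the 48 h arrays.

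Marker lists of other tissues and cell types were also read at 48 h. Those of skeletal muscle and the B lineage overlapped with 12 and 15 h. The 12 measured liver markers averaged 7.86 and 7.31 on the 48 h arrays, against 5.70 to 5.92 at 12 and 15 h and 6.09 and 6.11 in the controls of the larger run, and 10 of the 12 passed upward against 12 and 15 h. The 48 h array with the higher liver markers, replicate 1, was also the one with the higher level of all 10 members. The 7 measured megakaryocyte markers averaged 10.80 and 10.61 at 48 h against 10.28 to 10.45 at 12 and 15 h, with 7 of 7 above 0, a median of 0.28 and 1 past the threshold, the platelet glycoprotein gene Gp9 (0.45 ± 0.08, adjusted p = 0.0270). The 14 skeletal muscle markers averaged 9.04 and 7.07 against 7.21 to 8.35, with 14 of 14 above 0 in the fit and 0 past the threshold. The 15 neutrophil markers averaged 12.57 and 12.67 at 48 h against 12.71 to 12.78 at 12 and 15 h, and the 12 measured B-lineage markers 9.43 and 9.63 against 9.53 to 9.81. Their part in the result was not tested.

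At 4 h, with 1 array, all 10 members were lower than control, by 0.12 (Aqp1) to 0.68 (Kel), with a median of −0.36 against 0.00 for all genes. None passed in either direction, where 1.99% of all genes did. The larger differences were those of Kel (−0.68 ± 0.22, adjusted p = 0.183), Ermap (−0.57 ± 0.18, adjusted p = 0.168) and Epb42 (−0.52 ± 0.18, adjusted p = 0.199). The array lay below both controls of its run for 7 of the 10, the exceptions being Aqp1, Rhag and Add2, and 35.5% of all genes did the same. Without control replicate 1, the lower control, 6 members passed downward among 1359 genes of all in either direction, and without control replicate 2 none did. On the same array the 15 small intestine markers averaged 9.59, against 6.75 and 6.67 in the controls, and 13 of them passed upward. The 14 skeletal muscle markers averaged 9.83 against 8.09 and 8.01, and 0 passed. The part of these other tissues in the lower membrane transcripts was not tested.

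At 9 h the members split. The fit placed 4 above and 6 below control, from −0.35 (Aqp1) to 0.22 (Add2), with a median of −0.02, and 0 passed (0.0953% of all genes did). Both runs hold 9 h and control arrays. Against the control of the smaller run the means of the 9 h pair were −0.30 for Aqp1, −0.28 for Ermap, −0.15 for Kel, −0.13 for Rhd, −0.07 for Slc4a1 and Epb42, −0.01 for Ank1, 0.06 for Rhag and 0.15 for Add2, while Sptb had the same value on all 3 arrays. Against the mean of the controls of the larger run, 9 h replicate 3 differed by −0.40 for Aqp1, −0.24 for Ermap, 0.13 for Kel, −0.14 for Rhd, −0.13 for Slc4a1, 0.00 for Epb42, 0.20 for Ank1, 0.12 for Rhag and 0.29 for Add2. Kel and Ank1 were thus lower in the smaller run and higher in the larger, and the value of Ank1 in the smaller run was tied between the control and 9 h replicate 2.

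At 12 and 15 h the members' medians against control were −0.13 and −0.09, and 0 members passed at either time (0.105% and 0.256% of all genes did). At both times the most negative member was Aqp1 or Ermap (Ermap −0.29 ± 0.15 at 12 h, adjusted p = 0.414), and Rhag (0.17 ± 0.13 at each) and Add2 (0.13 ± 0.15 and 0.20 ± 0.15) were the members above control, with Ank1 at 0.01 ± 0.15 at 15 h. Without control replicate 1 Aqp1 passed at 15 h (−0.46, adjusted p = 0.0498), and without control replicate 2 it did not (−0.22, adjusted p = 0.635).

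Each member was also set against other erythroid genes of the same array, which takes shared differences in erythroid transcripts out of the values. The reference, chosen after the values had been seen, was the mean of the 28 erythroid regulators and heme enzymes. Relative to it Aqp1 was 0.81 and 0.78 in the controls of the larger run, 0.91 at 4 h, 0.39 at 9 h, 0.60 on both 12 h arrays, 0.45 and 0.47 at 15 h, and 0.80 and 0.75 at 48 h. In the smaller run it was 0.79 in the control and 0.51 and 0.54 at 9 h. On this scale Aqp1 differed by 0.03 between the controls of the larger run, where it had differed by 0.34. Its arrays at 9, 12 and 15 h all lay below every control of their run. The controls were also close for Slc4a1 (2.18 and 2.14) and Rhd (0.76 and 0.78). For the other members they stayed further apart, such as Kel (0.01 and 0.36) and Epb42 (0.23 and 0.44).

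Relative to the erythroid list Ermap was 0.64 and 0.82 in the controls of the larger run and 0.45 to 0.61 from 9 to 15 h, with 0.81 and 0.71 at 48 h, and in the smaller run it was 0.79 in the control and 0.51 and 0.59 at 9 h. Slc4a1 was likewise lower from 9 to 15 h in both runs (2.18 and 2.14 in the controls, 1.92 to 2.09 after), and in the smaller run it was 1.92 in the control and 1.90 and 1.85 at 9 h. With 2.02 at 4 h and 1.96 on both 48 h arrays it lay below the controls of its run on every array after blood loss, as did 0.582% of all genes. Rhag went the other way, from 0.69 and 0.86 in the controls to 0.89 to 1.02, and from 0.55 to 0.65 and 0.63 in the smaller run. Thus 3 members were lower and 1 higher on every array from 9 to 15 h in both runs, as were 1.27% and 3.56% of all genes. The reference itself holds Tfrc and Cpox, the members of that list above both controls on all 5 arrays from 9 to 15 h of the larger run.

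**Figure D4:**
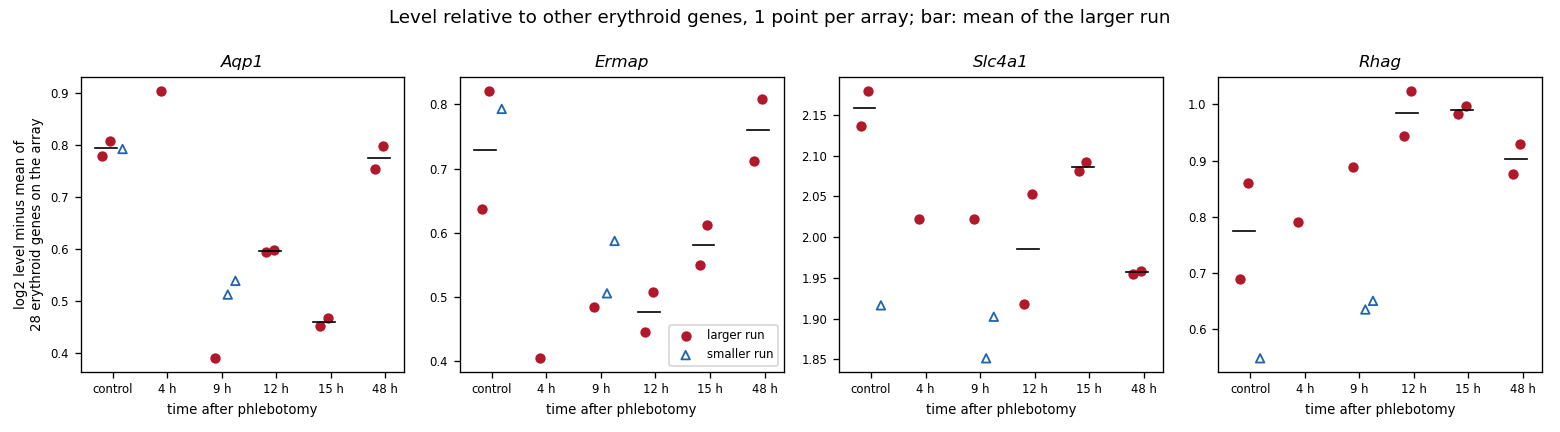
Log2 level minus the mean of 28 erythroid genes on the same array (vertical axis) by group (horizontal axis) for 4 members; filled circles are the larger run, open triangles the smaller run, and bars the mean of the larger run where a group has 2 arrays. Aqp1 lies between 0.39 and 0.60 from 9 to 15 h and between 0.75 and 0.81 in the controls and at 48 h.

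On this relative scale 0 of the 10 members passed in any of the 6 comparisons, while of all genes 2.07% did at 4 h, 0.0752% at 9 h, 0.0502% at 12 h, 0.12% at 15 h and 0.191% at 48 h against control, and 17.6% at 48 h against 12 and 15 h. Aqp1 at 48 h stood 0.25 ± 0.10 above 12 and 15 h (adjusted p = 0.0728) and Ermap 0.23 ± 0.11 (adjusted p = 0.0944), and the other members lay between −0.09 and 0.16. The 48 h arrays were above all 12 and 15 h arrays for 3 members, Aqp1, Rhd and Ermap, as for 1.13% of all genes, and below them for 1, Rhag, as for 69.8% of all genes. The reference itself was higher at 48 h, at 11.51 and 11.38 against 11.1 to 11.2 at 12 and 15 h. Subtracting it lowers every gene that did not rise with it. The shares of all genes at 48 h against 12 and 15 h carry that shift and are no ordinary background for the members. The higher unscaled levels of the 10 members at 48 h stood beside higher levels in the erythroid list, whose median difference was 0.33 with 26 of 28 genes above 0 and 1 past the threshold, Gfi1b, an erythroid transcription factor (0.77 ± 0.12, adjusted p = 0.0178).

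Of 36 other listed genes of the red cell membrane and its skeleton, 32 were measured. At 48 h against 12 and 15 h, 0 passed, the median was 0.11, and 15 of the 32 (46.9%) had both 48 h arrays above the 12 and 15 h arrays, as had 15.4% of all genes. Those 15, named after their values were seen, included Dmtn (dematin) and Tmod1 (tropomodulin), which bind the actin junctions, Xk, the partner of Kel, Slc14a1, the urea transporter, and Ackr1, the Duffy antigen. For 2 of the 32 (6.25%), the tropomyosins Tpm1 and Tpm3, both 48 h arrays were below. The share of all genes that were below is not given here, so this count has no background. In the comparisons with control the only gene of the list past the threshold was Trpm4, a cation channel, at 4 h (0.63 ± 0.10). That group is 1 array, on which the 15 small intestine markers averaged 9.59, against 6.75 and 6.67 in the controls of the larger run. The part of that tissue in the Trpm4 value was not tested.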

How the data were processed

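Bone marrow RNA was hybridised to Affymetrix Mouse Gene 1.0 ST arrays with 1 colour. The deposited table holds log2 levels that the authors computed by RMA, as per the labels' list of tools. Its version, and which arrays were normalized together, are not given in the sources used here. Of 35557 probe sets, 21789 have 1 gene by the platform annotation, 1621 several and 12147 none listed; 21698 symbols were brought up to date by Entrez identifier. Where a gene had several probe sets (999 genes), the one with the highest mean stood for it. Each member had 1.

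Samples were grouped by their time label. Replicate numbers follow sample order only and make no pairs. The log2 values of all 13 arrays were fitted in R 4.3.3 (limma 3.58.1) by 6 groups plus the run of title numbers as a fixed term (6 residual and 4.62 prior degrees of freedom), and 6 contrasts were tested over 19938 genes. The fit was also run on simulated data whose noise was independent between genes. Those data held no ties and no difference between replicates shared by many genes, so that run cannot speak to either. The members and lists were chosen with earlier results of these data known. By rule all 10 members were named, with up to 4 genes past the threshold from the other membrane genes, up to 2 from each further list, and the 6 non-members most correlated with the members' mean. The reference of 28 erythroid genes was chosen after the values were seen. The number of arrays limits the precision. Alternatives used the larger run or the groups of a contrast alone, other scalings, filters, probe set rules and moderation, and left out each array in turn. Plots used matplotlib 3.10.9 (Python 3.11.15).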

Additional observations from a re-analysis of the deposited data

Results flagged for a closer look

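The change of Aqp1 against control differed between 48 h and the mean of 12 and 15 h by log2 0.55 (limma, adjusted p = 0.0292), a difference between time points that the fit tested directly. It was the only member for which that difference passed, and the 12 measured liver markers were higher on the same 48 h arrays.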

How the results depend on the processing

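No paired analysis was possible because the replicate numbers only follow the order of the samples. Of 1310 member values recomputed under the alternatives, 1239 kept their direction and their side of the threshold, and none of the 45 that reversed belonged to a value past the threshold. Only 1 of the 60 member results, that of Aqp1, was past it, so the lack of reversals there says little. Some differences also cannot change when an array outside their comparison is left out. The count of members past the threshold at 48 h against 12 and 15 h, 1 in the fit as reported, was 0 in the larger run alone, 0 with arrays centred on the erythroid list (chosen after seeing the data), 3 with the groups of the contrast alone (Aqp1, Rhd and Ermap) and 2 with trend and robust moderation (Aqp1 and Rhd), and ran from 0 to 5 as each array was left out. Leaving out each array moved this count from 0 to 6 at 4 h, from 0 to 1 at 15 h and from 0 to 1 at 48 h against control, with the 6 and the 1 at 15 h arising without control replicate 1 and the 1 at 48 h without control replicate 2. Over all genes the count past the threshold at 48 h against 12 and 15 h was 165, against 55 in the larger run alone, 499 from the contrast's own groups, 278 with trend and robust moderation, 64 without the dimmest genes, 3505 with arrays centred on the erythroid list, and 28 (without 48 h replicate 1) to 1265 (without control replicate 1) with 1 array left out. At 4 h it was 397, against 199 from the contrast's own groups, 137 without the dimmest genes and up to 1359 without control replicate 1. At 9, 12, 15 and 48 h against control it was 19, 21, 51 and 75, and 3, 2, 9 and 13 when fitted on those groups by themselves. The comparison rests on fewer arrays in those fits, and beyond that the cause was not tested.

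Directions that reversed as each array was left out had these ranges. At 4 h Aqp1 ran from −0.22 to 0.017. At 9 h Ank1 ran from −0.032 to 0.20, Sptb from −0.088 to 0.15, Epb42 from −0.16 to 0.085, Rhag from −0.030 to 0.20 and Kel from −0.18 to 0.13. At 12 h they were −0.29 to 0.091 for Ank1, −0.26 to 0.15 for Epb42, −0.029 to 0.35 for Rhag, −0.17 to 0.10 for Rhd, −0.47 to 0.040 for Kel and −0.083 to 0.30 for Add2. At 15 h they were −0.21 to 0.023 for Slc4a1, −0.20 to 0.18 for Ank1, −0.28 to 0.11 for Sptb, −0.23 to 0.19 for Epb42, −0.029 to 0.35 for Rhag, −0.43 to 0.082 for Kel, −0.0055 to 0.38 for Add2 and −0.39 to 0.00034 for Ermap. At 48 h against control they were −0.034 to 0.20 for Slc4a1 and −0.061 to 0.45 for Kel. In the larger run alone Kel at 9 h was 0.13. With arrays centred on their median Kel at 9 h was 0.0024 and Ank1 at 15 h was −0.0074. With arrays centred on the erythroid list the reversed values were 0.13 for Aqp1 and 0.014 for Rhag at 4 h, 0.0026 for Kel at 9 h, 0.027 for Epb42 at 15 h, −0.19 for Slc4a1, −0.038 for Sptb and −0.034 for Kel at 48 h against control, and −0.080 for Slc4a1, −0.0084 for Ank1, −0.085 for Rhag and −0.086 for Add2 at 48 h against 12 and 15 h.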
